A study of Mus musculus with 12 samples.

Results

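Gata2, Gata4, Gata6, Osr1, Osr2, Nr2f1, Nr2f2, Meis1 and Meis2 are transcription factors of 4 families that mark where along the body, and in which vessel, a cell arose. They were taken by symbol from the deposited table, in which all 9 are present among 27825 genes. They were chosen by name as regional factors with their levels in the 2 tissues already known, so that normalized counts in the tissues entered the choice. For that reason the differences of the 9 between tissues are given below as a description, without a test, whereas the effects of diet were tested. For listed genes and markers, also chosen with earlier results known, a call between tissues in limma is likewise only a description.

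RNA was sequenced in bulk from endothelial cells sorted from mesentery, the sheet of tissue through which vessels reach the intestine, and from epididymal fat, with 3 libraries in each of 4 groups. Every group carried the same genotype, ROSA26-eYFP+/+ Cdh5-CreERT2+, in male mice: tamoxifen in the food activates a Cre recombinase made under Cdh5, the gene of the endothelial adhesion protein VE-cadherin, and leaves the cells and their progeny labelled with YFP. All of them ate tamoxifen food for 2 weeks, beginning at 6 weeks of age. The groups differed in diet after 8 weeks of age, normal chow with 5.8% fat (NC) or a high fat diet with 60% fat (HFD), for 12 to 13 weeks. The 4 groups were thus mesentery on chow, mesentery on high fat diet, epididymal fat on chow and epididymal fat on high fat diet. Tissue of 6 mice was pooled in a sample and digested with actinomycin D, which blocks transcription, red cells were lysed, and YFP+ cells were sorted.

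The titles name the libraries of a group A, B and C, and the descriptions number them 50, 51 and 87 on chow and 88, 52 and 53 on high fat diet, with the same numbers in both tissues. The protocol speaks of 2 independent replicates, so n = 3 counts libraries here, and p-values measure the spread between these libraries, which may in part be technical. Recovered totals were 8348897 to 25397963 reads a library, and 23125 to 27691 genes had a read. Cdh5 was at 2172 to 4822 normalized counts and Pecam1, another endothelial adhesion gene, at 3730 to 12974, with none of 12 endothelial markers at 0 in any library. Markers of other cells were present too, and differed between tissues. The summed level of 10 pancreatic acinar genes was 30331 to 199139 in mesentery and 189 to 563 in epididymal fat. The summed level of 12 macrophage and leukocyte genes was 2143 to 30248 in mesentery, 7411 to 94963 in epididymal fat on chow and 149153 to 379417 there on high fat diet. Mesentery replicate C on chow stood apart from replicates A and B. It had the fewest reads, the lowest acinar sum (30331 against 199139 and 159247) and the highest lymphatic sum. Of the 8 factors tested, those tissue differences on chow and mesentery diet changes below that moved over 1.5 times without replicate C are given both ways. The differences of all other genes are given with all 12 libraries only.

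GATA factors are zinc finger proteins that bind the letters GATA. Gata2 is the member of blood and vessel lineages, Gata4 sets the identity of liver sinusoidal endothelium and of the heart lining, and Gata6 acts in gut, heart and the macrophages of the peritoneal cavity. Osr1 and Osr2, the odd-skipped related factors, are zinc finger proteins of the embryonic mesoderm that forms kidney, limb and connective tissue. Nr2f1 and Nr2f2 are the orphan nuclear receptors COUP-TFI and COUP-TFII, of which Nr2f2 establishes vein identity by holding down Notch signalling and works with Prox1 in lymphatic vessels. Meis1 and Meis2 are homeodomain proteins of the TALE class that bind DNA together with Pbx and Hox proteins, which carry positional information.

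The promoters of 4 of the 5 members with an entry in the RefSeq table are shown, since these genes had their higher level in 1 tissue on chow: Gata2 and Meis2 in mesentery, Nr2f1 and Nr2f2 in epididymal fat. Osr1 and Osr2, with the largest tissue differences, had no entry. Each is the 250 bases before a RefSeq transcription start, on the coding strand, in the GRCm38.p6 build. The submitters' processing notes name mm39 for the sequencing data, so these coordinates apply to the sequences alone. The windows are chr6:88193641-88193890 on the plus strand for the first of 2 Gata2 starts, chr2:116064620-116064869 on the minus strand for Meis2, chr13:78198874-78199123 on the minus strand for the first of 2 Nr2f1 starts, and chr7:70366747-70366996 on the minus strand for Nr2f2. Capitals mark the match to a GATA motif.
Gata2 start 1: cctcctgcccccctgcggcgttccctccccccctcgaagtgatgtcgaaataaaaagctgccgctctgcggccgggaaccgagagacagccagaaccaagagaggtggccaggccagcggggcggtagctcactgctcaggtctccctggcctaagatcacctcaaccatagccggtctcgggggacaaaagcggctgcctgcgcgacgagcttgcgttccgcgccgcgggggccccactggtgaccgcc
Meis2: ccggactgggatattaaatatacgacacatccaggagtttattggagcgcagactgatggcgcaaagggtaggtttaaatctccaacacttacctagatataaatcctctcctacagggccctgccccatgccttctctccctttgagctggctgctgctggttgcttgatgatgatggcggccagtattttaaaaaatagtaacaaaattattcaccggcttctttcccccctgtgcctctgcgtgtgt
Nr2f1 start 1: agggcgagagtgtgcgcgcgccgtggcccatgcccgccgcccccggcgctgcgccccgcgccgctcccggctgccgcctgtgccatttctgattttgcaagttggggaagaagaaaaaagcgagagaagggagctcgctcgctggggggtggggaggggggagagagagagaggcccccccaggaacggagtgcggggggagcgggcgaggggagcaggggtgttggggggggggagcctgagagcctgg
Nr2f2: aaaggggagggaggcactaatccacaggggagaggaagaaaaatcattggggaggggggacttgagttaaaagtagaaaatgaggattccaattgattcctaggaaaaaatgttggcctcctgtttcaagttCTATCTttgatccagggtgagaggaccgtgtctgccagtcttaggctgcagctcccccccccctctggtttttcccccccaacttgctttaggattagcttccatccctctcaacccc

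The capital letters in the Nr2f2 window spell AGATAG on the opposite strand, 118 to 113 bases before the start. This was the only match in the 7 windows of the 5 members with a RefSeq promoter entry, which are 2 of Gata2, 2 of Nr2f1 and 1 each of Nr2f2, Meis1 and Meis2. Gata4 and Gata6 had no entry either. Both strands were searched for GATA preceded by A or T and followed by A or G, the COUP-TF half-site AGGTCA, the MEIS letters TGACAG and the OSR letters ACAGTAGC. Among all 32851 windows of the same length, 26.5% held the GATA letters, 14.0% AGGTCA, 15.9% TGACAG and 0.749% ACAGTAGC, so a GATA match is frequent. The windows differed in base composition: G and C made up 67.2% of Gata2 start 1 and 72.0% of Nr2f1 start 1, against 50.0% of Nr2f2, 47.6% of Meis2 and a median of 52.4% over all windows. Both Gata2 windows are rich in CpG, with 22 and 24 in 250 bases against a median of 6. A match describes the letters in the window and does not show binding.

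**Figure D1:**
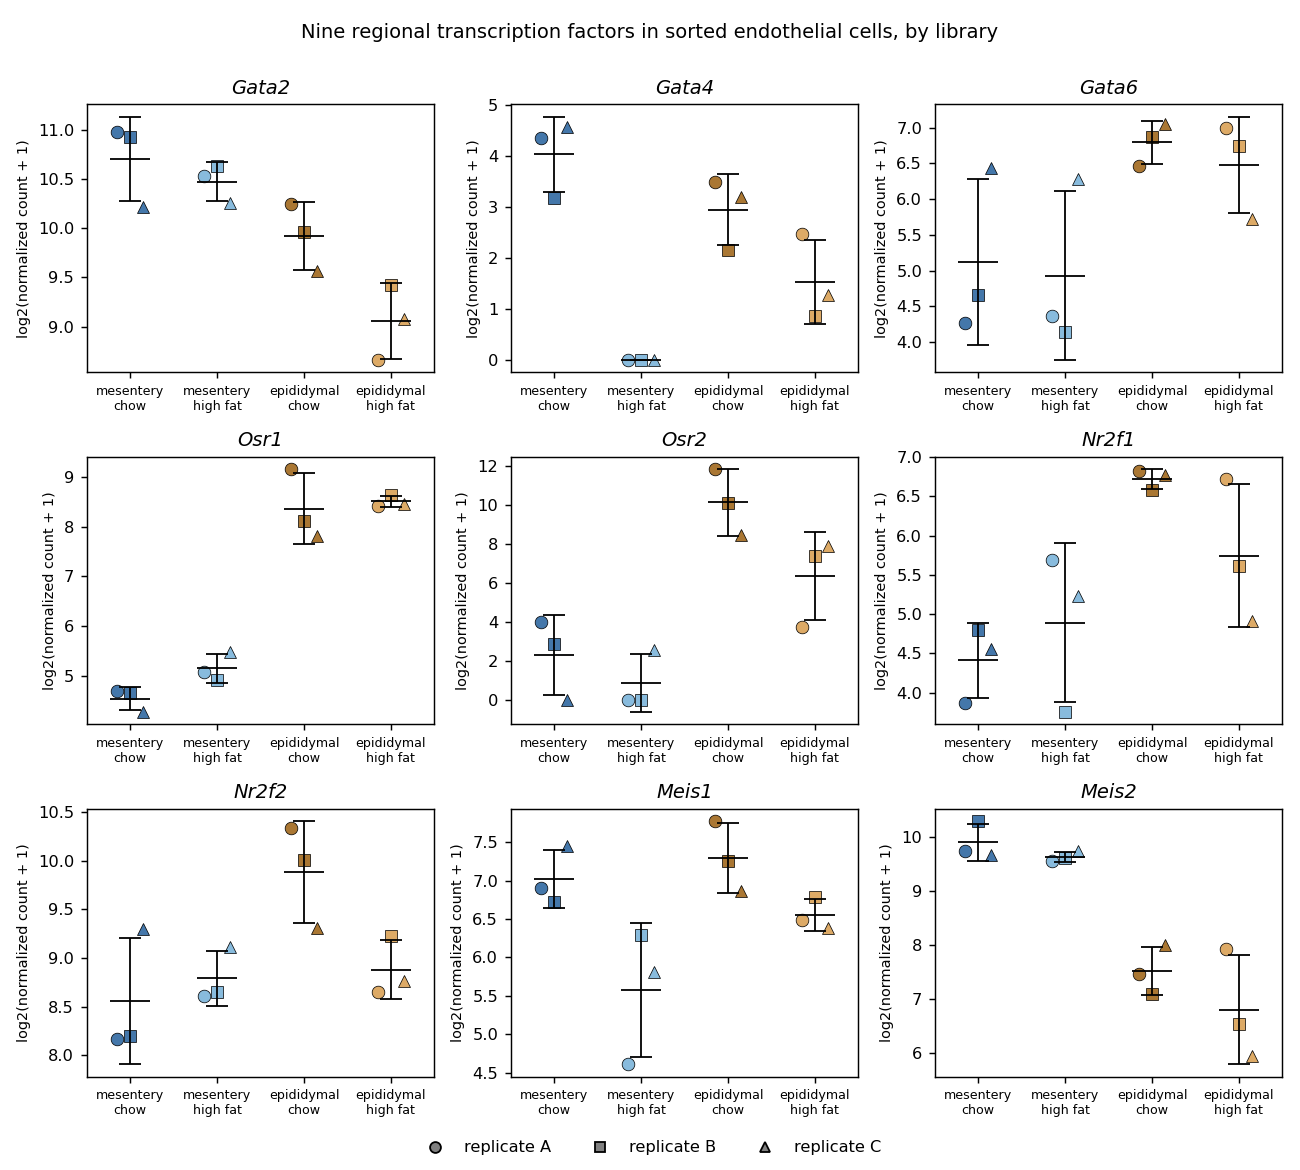
Level of each of the 9 factors in each library, as log2(normalized count + 1) on the vertical axis with a separate range per gene, for the 4 groups on the horizontal axis. Points are the libraries (circle A, square B, triangle C), the long bar is the mean of the log2 values and the short bars are 1 SD (n = 3). Osr1, Osr2 and Meis2 separate the tissues on both diets, and Gata4 is at 0 in all 3 mesentery libraries on high fat diet.

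Of the GATA factors, Gata2 was highest in mesentery and lowest in epididymal fat on high fat diet. Gata2 (ENSMUSG00000015053) stood at 2019, 1939 and 1185 normalized counts in chow mesentery replicates A, B and C, and at 1475, 1587 and 1217 on high fat diet. Epididymal fat had 1217, 997 and 755 on chow and 405, 688 and 541 on high fat diet. The 2 diets therefore overlapped in mesentery, while in epididymal fat every high fat library lay below every chow library. In bulk samples such as these, fewer cells of a type and less RNA per cell cannot be told apart. High fat diet against chow gave a log2 change of -0.23 (SE 0.259) in mesentery, with an adjusted p of 0.959 in limma, and of -0.87 (SE 0.259) in epididymal fat, with an adjusted p of 0.228. Without 1 library in turn the mesentery change ran from -0.48, without chow replicate C, to -0.097, without chow replicate A. The epididymal change was about the same among the libraries numbered 50 to 53 (-0.85) and in the pair numbered 87 and 88 (-0.90). It passed the threshold after the columns were rescaled to equal totals (-1.01, adjusted p 0.0366 in limma) and in DESeq2 (-0.86, adjusted p 0.0498). In epididymal fat the 12 endothelial markers summed to 85102 to 103210 on chow and 46699 to 89341 on high fat diet. The diets thus overlapped in this sum, unlike for Gata2. Of the 12, 0 passed the test for diet there, with log2 changes from 0.05 (Cldn5) to -1.12 (Emcn). The part of the endothelial sum in the Gata2 difference was not tested.

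Between tissues, the Gata2 level in epididymal fat was lower than in mesentery by a log2 difference of -0.78 on chow, where 1 mesentery library (replicate C, 1185) fell inside the epididymal range. Without that library the chow difference was -1.03. On high fat diet the difference was -1.41 and the tissues did not overlap. The descending order of Gata2 was mesentery on chow, mesentery on high fat diet, epididymal fat on chow and epididymal fat on high fat diet, and only the first 2 neighbours overlapped. Mesentery on high fat diet and epididymal fat on chow were apart by a very narrow margin, 1217.29 against 1217.05. The endothelial sum was 113108 to 171386 in mesentery over both diets and 46699 to 103210 in epididymal fat, but its members did not move as one. On chow 6 of the 12 were called lower in epididymal fat and 1 higher, and on high fat diet 8 were lower and 1 higher. The higher one was the tight junction gene Cldn5, at 4.25 on chow and 2.50 on high fat diet, while Cdh5 (0.02), Erg (0.13) and Esam (0.13) were not called on chow. The Cdh5 value includes mesentery replicate C, at 2657 against 4046 and 4822 in A and B. Chow epididymal fat had 3177, 4456 and 3778. The part of the endothelial share in the Gata2 difference between tissues was not tested. The genes with the most similar profile over the 12 libraries, by the root mean square difference of centred log2 values, were Clstn1 (0.111), Phf1 (0.132) and Hoxb5 (0.147), a Hox gene.

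Gata4 was detected in both tissues on chow and had 0 reads in mesentery on high fat diet. The 3 chow mesentery libraries held 19.4, 8.06 and 22.5 normalized counts of Gata4 (ENSMUSG00000021944), 42 reads in all, and the 3 high fat ones held 0 reads. Epididymal fat held 10.2, 3.48 and 8.17 on chow, 25 reads, and 4.50, 0.826 and 1.42 on high fat diet, 7 reads. The 2 mesentery groups thus did not overlap, whereas the epididymal groups did. Against a floor of 3 reads over the group, the chow mesentery level was at least 14.5-fold higher than the high fat level, a bound that covers counting error only. With a mean under 10 the gene stayed outside the main test. When all 27825 genes were tested, its diet change in mesentery had an adjusted p of 0.437 in limma and 0.700 in edgeR, and that in epididymal fat an adjusted p of 1 in both.

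Gata6 (ENSMUSG00000005836) was higher in epididymal fat, but 1 library of each mesentery group reached the epididymal level. Its mesentery values were 18.2, 24.2 and 85.9 normalized counts on chow and 19.6, 16.6 and 77.1 on high fat diet. Epididymal values were 86.9, 115.5 and 132 on chow and 126, 106 and 51.7 on high fat diet. Replicate C of either mesentery group was more than the sum of the other libraries of its group. The tissues were apart on chow by a narrow margin, 85.9 against 86.9, and overlapped on high fat diet. The log2 difference, epididymal fat minus mesentery, was 1.67 on chow (2.33 without mesentery replicate C) and 1.55 on high fat diet, each with an SE of 0.682. Diet gave -0.19 in mesentery and -0.31 in epididymal fat (adjusted p 0.992 and 1.00 in limma), and leaving out mesentery replicate C on chow turned the first to 0.47.

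Peritoneal macrophages and mesothelium, the lining of the peritoneum, both express Gata6, and mesothelium also Gata4. Of the sum of the 10 markers of peritoneal macrophages, 44.9% to 98.3% was Icam2, an adhesion gene that endothelium also expresses, so the other 9 are given without it, a choice made after the values were seen. They summed to 105 to 1087 in chow mesentery and 270 to 548 on high fat diet, and to 746 to 1781 in epididymal fat on chow and 2068 to 4143 on high fat diet. The tissues overlapped on chow through mesentery replicate C (1087), a library high in Gata6, and did not on high fat diet. These 9 include Selp, which is also on the venous list below and averaged 188 ± 289 in chow mesentery (SD, n = 3). On high fat diet Adgre1 averaged 131 ± 102 in mesentery and 2376 ± 1036 in epididymal fat, the highest mean of the 9 there. Of the 10 genes, 2 were called higher in epididymal fat on chow and 1 on high fat diet, and Alox15 was at 0 in all 6 mesentery libraries. The 12 mesothelial markers with a row summed to 1189 to 1939 in mesentery and 3082 to 6124 in epididymal fat, with Wt1 at 0 in the chow mesentery libraries. Cldn15 had the highest mean of them, at 824 ± 194 in chow mesentery and 3529 ± 954 in chow epididymal fat (SD, n = 3). Of 11 tested, 6 were called higher in epididymal fat on chow and 3 on high fat diet, and 0 lower on either. Muc16, Krt8 and Krt18 were lower there on both diets without a call, Krt8 by -1.27 on chow and -3.26 on high fat diet. The part of either cell type in the Gata6 levels was not tested. An antisense gene, Gata6os, overlaps Gata6 in the GENCODE M21 annotation, and since the use of strand in the counting is not given in the sources used here, its reads (1.14 to 38.5 normalized counts) cannot be told apart from those of Gata6 with certainty. Mgst2 (0.317), Spa17 (0.448) and Vcam1 (0.485) had the profiles nearest to Gata6.

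None of 8 tested relatives and cofactors of GATA factors and none of 9 reported endothelial GATA targets passed the test for diet in either tissue. Between tissues, 12.8% of all genes tested were called on chow and 8.34% on high fat diet in limma. The lists of related genes were put together with earlier results of these data known, so their counts between tissues only describe them, and nothing is read from them against those shares. On chow 1 relative was higher in epididymal fat and 1 lower. The higher one was Gata3 (2.49), a relative of T cells and kidney duct. The lower one was Trps1, a GATA-type repressor, with a log2 difference of -1.60 (mesentery 380 ± 129 normalized counts, epididymal fat 123 ± 32.1, SD, n = 3). Tal1, a partner of Gata2 in blood and vessel cells, had -1.37 without passing. Among the targets 2 were higher in epididymal fat, the clotting factor carrier Vwf (1.94) and the adhesion receptor Vcam1 (1.89), and 4 were lower. These were the sialomucin Emcn (-1.72), the VEGF receptor Kdr (-1.54), the angiopoietin receptor Tek (-1.04) and Pecam1 (-0.90), all 4 of which also belong to the endothelial marker list. The same 4 were lower on high fat diet and none was higher, and of the relatives Trps1 (-1.38) and the cofactor Ldb1 (-0.69) were lower. The median log2 difference was -0.27 for the relatives and -0.04 for the targets, against -0.08 over all genes tested.

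Of 11 genes that Gata4 maintains in liver sinusoids, 4 were higher and 1 lower in epididymal fat on chow. Lyve1, a hyaluronan receptor of lymphatic and sinusoidal endothelium, had a log2 difference of 5.23 and Wnt2, a growth factor, one of 4.95. The other two were the mannose receptor Mrc1 (2.88), which is also on the macrophage list, and the receptor Gpr182 (1.45). Oit3 went the other way: its mean was 300.2 ± 82.6 normalized counts (SD, n = 3) in mesentery, against 4.96 ± 3.62 in the fat, a log2 difference of -5.91. On high fat diet 2 of the 11 were called higher, Mrc1 (3.09) and Gpr182 (1.25), and none lower: Lyve1 had 1.84, Wnt2 1.02 and Oit3 -1.67. Oit3 was also the only gene of the lists of related factors to pass a diet test. In epididymal fat Oit3 rose to 64.8 ± 27.7 on high fat diet, a log2 change of 3.66 (adjusted p 0.0135 in limma). Mesentery had 199 ± 45.1 on high fat diet, a change of -0.58 that did not pass. The difference of the diet effects, 4.24, did not pass either (adjusted p 0.185 in limma).

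The OSR factors had the largest tissue differences of the 8 factors tested, on either diet. Osr1 (ENSMUSG00000048387) was at 25.1, 24.2 and 18.3 normalized counts in mesentery on chow and at 32.7, 29.1 and 43.5 on high fat diet. Epididymal fat had 572, 278 and 223 on chow and 341, 397 and 352 on high fat diet. No mesentery library came near the epididymal range, and the log2 difference was 3.82 on chow and 3.35 on high fat diet (SE 0.373), about 14.1 and 10.2 times on the scale of the normalized count + 1. Every high fat mesentery library was above every chow one, but the change of 0.61 (SE 0.373) did not pass the test (adjusted p 0.899 in limma). The epididymal diet change of 0.14 had an adjusted p of 1.00 and turned to -0.09 with the libraries numbered 50 to 53 alone. Osr1 was thus ordered by tissue, with the 2 epididymal groups overlapping.

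Osr2 (ENSMUSG00000022330) had the widest spread of the 9 factors. Its mesentery libraries held 14.8, 6.27 and 0 normalized counts on chow and 0, 0 and 4.94 on high fat diet, 20 and 5 reads in all. In epididymal fat it was at 3649, 1079.9 and 345 on chow and at 12.4, 166 and 238 on high fat diet. All chow epididymal libraries were above all high fat ones, with more than 10-fold between the highest and lowest library inside either group. The log2 change with diet in epididymal fat was -3.77 with an SE of 1.31 and an adjusted p of 0.367 in limma, and it was -3.31 among libraries 50 to 53 and -4.69 in the pair 87 and 88. Without high fat replicate A (12.4) it was -2.47. The 95% interval ran from -6.61 to -0.94. Between tissues the difference was 7.83 on chow (6.69 without mesentery replicate C) and 5.48 on high fat diet, and on high fat diet 1 epididymal library (12.4) lay below 1 chow mesentery library (14.8) but above the 3 high fat mesentery ones. Near 0 reads, the mesentery end of these differences depends on the pseudocount of 1.

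Fibroblast and adipose progenitor markers followed a similar tissue pattern. Their 12 genes summed to 4986 to 10892 in mesentery, 19921 to 58775 in epididymal fat on chow and 48614 to 64285 there on high fat diet, none of them at 0 in a library. Among chow epididymal libraries, A, B and C had 58775, 42125 and 19921, the order of Osr1 (572, 278, 223) and of Osr2 (3649, 1079.9, 345). On high fat diet the sum was within or above the chow range while Osr2 was below it. Dcn had the highest mean of the 12 in epididymal fat, at 33761 ± 17704 on chow and 36627 ± 8234 on high fat diet (SD, n = 3). Only Pdgfra and Pdgfrl averaged less there on high fat diet. Pdgfra was at 568 ± 421 on chow against 244 ± 33.3, and Pdgfrl at 131 ± 57.4 against 95.6 ± 6.80. Of the 12, 2 passed the test for diet in epididymal fat, the collagen gene Col3a1 and the proteoglycan Lum, both higher on high fat diet. The adipocyte sum of 10 genes went the way of Osr2, at 152950 to 213369 in epididymal fat on chow and 10956 to 58838 on high fat diet, but at 10051 to 33922 in mesentery. Smooth muscle and pericyte markers did likewise, at 18220 to 28272 and 7974 to 14823 in epididymal fat against 1647 to 4804 in mesentery. The part of these cells in the OSR values was not tested.

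Profiles nearest to Osr1 belonged to Rarres2 (0.421), which encodes chemerin, Oaf (0.430) and Tmem119 (0.430). Those nearest to Osr2 were farther away, Smim41 (1.13), Acsbg1 (1.14) and Slc38a5 (1.28).

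**Figure D2:**
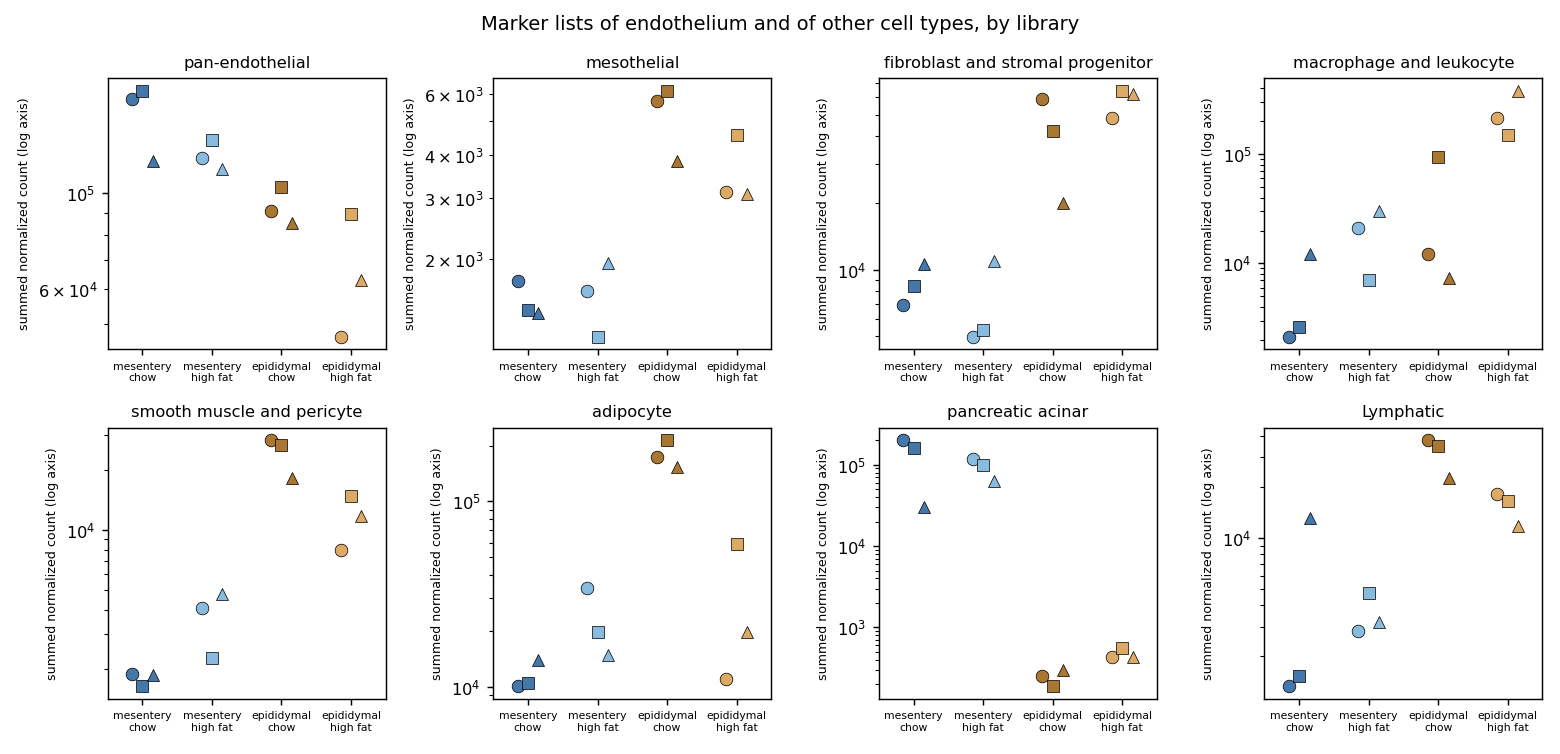
Summed normalized counts of marker lists in each library, on a log axis of its own range in each panel, for the 4 groups (circle A, square B, triangle C). Pancreatic acinar markers lie at 30331 or more in mesentery and at 563 or less in epididymal fat, fibroblast markers are higher in all epididymal libraries, and lymphatic markers of chow mesentery replicate C (13032) lie above the other 5 mesentery libraries.

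The COUP-TF genes were higher in epididymal fat on chow and overlapped between the tissues on high fat diet, but the test of that change did not pass for either. Nr2f2 (ENSMUSG00000030551) was at 286, 292 and 631 normalized counts in chow mesentery and at 389, 402 and 553 there on high fat diet. Epididymal fat had 1293, 1028 and 635 on chow and 401, 599 and 432 on high fat diet. On chow the tissues touched without overlapping, at 631 in mesentery replicate C and 635 in epididymal replicate C, and on high fat diet they overlapped. The log2 difference between tissues was 1.33 on chow (1.71 without mesentery replicate C) and 0.09 on high fat diet, where it became -0.099 after rescaling to equal totals. Within epididymal fat all high fat libraries were below all chow libraries, with a change of -1.01 (SE 0.330) and an adjusted p of 0.306 in limma. In mesentery the change was 0.24 (0.61 without chow replicate C, 0.043 without chow replicate A) and the diets overlapped (adjusted p 0.970).

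The diet effect on Nr2f2 in epididymal fat minus that in mesentery was -1.24 (SE 0.467, 95% interval -2.25 to -0.24), with an unadjusted p of 0.0193 and an adjusted p of 0.888 in limma. This difference was -1.88 among libraries 50 to 53 and 0.03 in the set numbered 87 and 88, and it was -1.62 (adjusted p 0.204) without chow mesentery replicate C. The number ranges differed likewise for the tissue difference on chow, with 1.99 among libraries 50 and 51 and 0.01 between the 2 libraries numbered 87. The labels do not say what the ranges stand for, and the second holds 1 library of a group.

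Lymphatic markers were highest in the chow mesentery library in which Nr2f2 was highest. The 7 lymphatic genes summed to 1332, 1522 and 13032 in chow mesentery and to 2818, 4759 and 3205 on high fat diet. Epididymal fat had 37637, 34690 and 22667 on chow and 18154, 16527 and 11831 on high fat diet, so that, as for Nr2f2, every chow library was above every high fat one. Most of that sum was Ccl21a, at 28206 ± 7159 on chow and 13284 ± 3029 on high fat diet (SD, n = 3). Prox1, Flt4, Mmrn1 and Ccl21a were each lower there without overlap. Lyve1, Reln and Pdpn overlapped between the diets, and Pdpn averaged 104 on chow and 145 on high fat diet. The lymphatic sum still separated the tissues on high fat diet, whereas Nr2f2 did not. Within the high fat groups the order of the libraries differed. In mesentery the sum was highest in replicate B and Nr2f2 in replicate C. In epididymal fat the sum was highest in replicate A, where Nr2f2 was lowest. The part of the lymphatic sum in the Nr2f2 values was not tested. On chow, 5 of these 7 genes were higher in epididymal fat and 1 lower, with the secreted protein Mmrn1 at 5.10, the chemokine Ccl21a at 4.48 and Reln, a matrix protein, at 3.70, beside Lyve1 and Pdpn (2.77). The lower one was the receptor Flt4 (-0.80). With high fat diet 0 of the 7 were called higher and 1 lower, again Flt4 (-0.91). Ccl21a, the most abundant of the 7, had 2.49 there (adjusted p 0.133 in limma). None passed the test for diet in either tissue.

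Nr2f1 (ENSMUSG00000069171) was at 13.7, 26.9 and 22.5 normalized counts in chow mesentery and at 50.5, 12.5 and 36.6 on high fat diet. In epididymal fat it held a narrow range on chow, 112, 94.7 and 108, and a wide one on high fat diet, 105, 47.9 and 29.0. The tissues were apart on chow, with a log2 difference of 2.31 (SE 0.625), and overlapped on high fat diet, with 0.86 (0.29 to 1.28 without 1 library in turn, lowest without mesentery replicate B). Diet changes were 0.48 in mesentery and -0.98 in epididymal fat, and their difference of -1.46 (SE 0.884) had an adjusted p of 1.00 in limma. The pair numbered 87 and 88 had an epididymal diet change of -0.05 and libraries 50 to 53 one of -1.44. Without 1 library in turn the change ran from 0.081 to 1.05 in mesentery, lowest without high fat replicate A and highest without high fat replicate B, and from -1.46 to -0.56 in epididymal fat, smallest without high fat replicate C. Neither diet comparison separated the libraries.

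Both COUP-TF genes have an antisense neighbour that shares exon sequence. B130024G19Rik, opposite Nr2f2, was at 140 to 165 normalized counts in epididymal fat on chow, 75.7 to 148 there on high fat diet and 34.2 to 63.6 in mesentery. A830082K12Rik, opposite Nr2f1, was at 37.5 to 89.3 in epididymal fat and at 0 to 13.8 in mesentery. The antisense levels thus also separated the tissues, and without a statement on strand part of the reads of either pair may be shared. Calml4 (0.245), Enpp5 (0.255) and Rcsd1 (0.263) were nearest to Nr2f2, and Car2 (0.513), Ccdc3 (0.522) and Mettl27 (0.524) to Nr2f1.

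The other genes of the COUP-TF pathway did not pass a diet test. Of 3 related receptors none was called between tissues on either diet, though the libraries of Nr2c2 did not overlap on chow (-0.79) or on high fat diet (-0.69). Of 7 venous genes, 3 were higher and 1 lower in epididymal fat on chow: Aplnr, the apelin receptor, had a log2 difference of 0.90 beside Vwf and Vcam1, and Ephb4, the ephrin receptor of veins, had -1.46. Of 11 arterial and Notch genes 1 was higher, the connexin Gja5 (1.64), and 3 were lower, Efnb2, the arterial ephrin (-1.53), the Notch target Hey1 (-1.08) and the semaphorin receptor Nrp1 (-1.08). Foxc1 stood at 1.80 and did not pass. On high fat diet 1 venous gene was called, Ephb4, lower in epididymal fat, and of the arterial list Gja5 was higher and Nrp1 and Notch4 were lower. The median log2 difference on chow was 1.24 for the venous and -0.43 for the arterial list, against -0.08 for all genes tested. On high fat diet these medians were 0.72, -0.88 and 0.06. The endothelial marker list had a median of -0.92 on chow. The venous sums of the tissues overlapped on chow (5683 to 7942 in mesentery, 7441 to 9904 in epididymal fat) and on high fat diet.

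**Figure D3:**
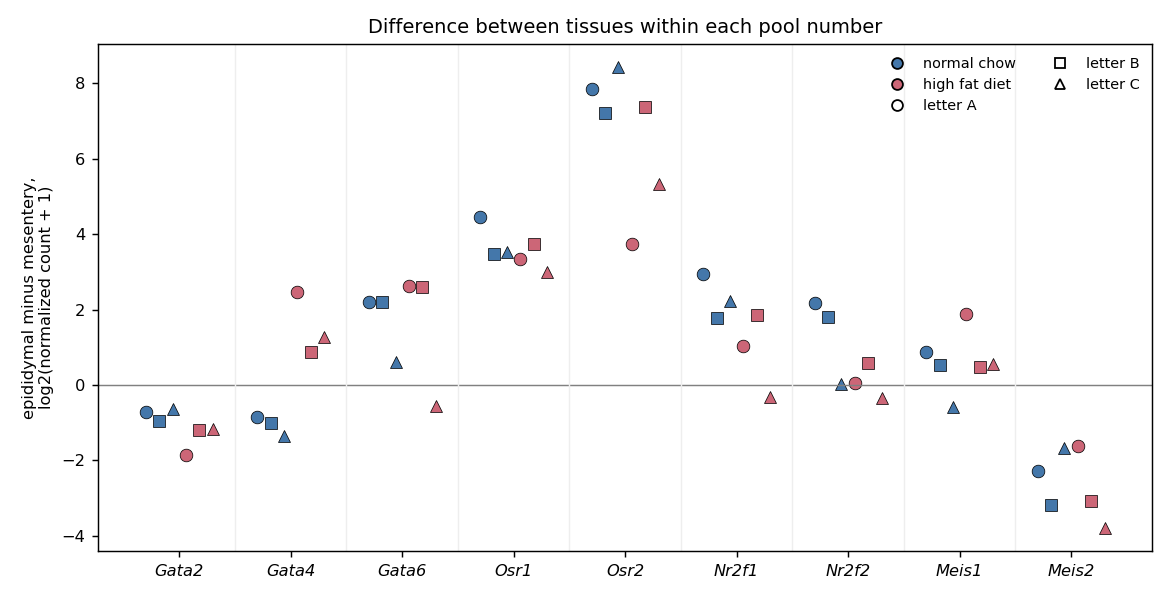
Difference between tissues, epididymal fat minus mesentery in log2(normalized count + 1), within each library number (same diet and letter), for the 9 factors. Blue points are chow and red points high fat diet. Osr1, Osr2, Gata2 and Meis2 keep 1 sign in all 6 pairs, while Nr2f2 runs from 2.17 in chow pair A to -0.35 in high fat pair C.

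The MEIS genes were unlike between the tissues: Meis2 was higher in mesentery on both diets, and Meis1 overlapped between the tissues on chow. Meis2 (ENSMUSG00000027210) stood at 862, 1261 and 818 normalized counts in chow mesentery and at 751, 782 and 858 on high fat diet. Epididymal fat had 176, 136 and 254 on chow and 243, 91.7 and 60.9 on high fat diet. The lowest mesentery library (751) was far above the highest epididymal one (254). Its log2 difference between tissues was -2.39 on chow and -2.83 on high fat diet (SE 0.404), with -2.74 and -1.68 within the 2 number ranges on chow. The diets overlapped in both tissues, with changes of -0.27 (adjusted p 0.971 in limma) in mesentery and -0.72 (adjusted p 0.912) in epididymal fat. The epididymal change was -1.28 without high fat replicate A and -0.29 without high fat replicate C, and the mesentery change was -0.078 without chow replicate B. Ccnjl (0.344), Syne1 (0.382) and Lepr (0.434), the leptin receptor gene, had the nearest profiles.

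For Meis1 (ENSMUSG00000020160), every high fat library lay below every chow library of the same tissue. Its values in mesentery were 118, 105 and 173 normalized counts on chow and 23.4, 77.6 and 55.3 on high fat diet. In epididymal fat they were 218, 151 and 115 on chow and 88.8, 109 and 82.1 on high fat diet. The log2 change was -1.45 (SE 0.437, 95% interval -2.39 to -0.51) in mesentery, with an unadjusted p of 0.00545 and an adjusted p of 0.572 in limma. In epididymal fat the change was -0.75 (adjusted p 0.942), and the effects differed between tissues by 0.70 (adjusted p 1.00), or by 0.22 without high fat mesentery replicate A. The size in mesentery rested on replicate A on high fat diet: without it the change was -0.97, and it was -0.76 among libraries 50 to 53 against -2.84 between the libraries numbered 87 and 88. Gm16140, an antisense gene with shared exon sequence, has no row in the table.

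Between tissues, Meis1 differed by 0.27 on chow, with overlap, and by 0.98 on high fat diet, without. The chow difference ran from 0.033, without epididymal replicate A, to 0.49, without epididymal replicate C, and was 0.48 without mesentery replicate C. Without mesentery replicate A the high fat difference was 0.49. In descending order its groups were epididymal fat on chow, mesentery on chow, epididymal fat on high fat diet and mesentery on high fat diet, with overlap except between the last 2. Grtp1 (0.343), Atmin (0.379) and Slc5a6 (0.399) were nearest to it. Of 8 tested TALE partners, none passed a diet test. On chow 1 was higher in epididymal fat, Meis3 (2.17), the third MEIS gene, and 1 lower, Pknox1 (-0.74), another partner of Pbx. Pknox1 was also the only one called on high fat diet (-0.75). Meis3 averaged 34.2 ± 25.8 normalized counts in mesentery, against 131 ± 53.9 in the fat (SD, n = 3).

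Counted together, 8 of the 9 factors entered the tests, and none passed for diet. In mesentery 0 of 8 were called in limma, 0 in edgeR and 0 in DESeq2, with 1 at an unadjusted p under 0.05 (Meis1), where 0.0135% of all 22238 genes were called and 6.15% were under the unadjusted limit. Libraries did not overlap for 2 of the 8, Osr1 higher and Meis1 lower, against 9.61% of all genes, and Gata4, outside the test, was also lower without overlap. In epididymal fat 0 of 8 were called, with 3 at an unadjusted p under 0.05 (Gata2, Osr2 and Nr2f2), against 0.549% called and 6.94% under the unadjusted limit among all genes. Of the 8, 4 had high fat libraries all below the chow ones, Gata2, Osr2, Nr2f2 and Meis1, where 6.57% of all genes did. DESeq2 and the rescaling to 1 total each called 1 member, Gata2, and edgeR called 0. Of all genes, DESeq2 called 546 there and edgeR 29, against 122 in limma. The median log2 change of the 8 was -0.81 in epididymal fat and -0.21 in mesentery, against 0.10 and -0.00 over all genes tested.

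For the difference of diet effects between tissues, 0 of 8 were called in limma, 0 in edgeR and 0 in DESeq2, and 1 (Nr2f2) had an unadjusted p under 0.05, where 0.00450% of all genes were called and 4.71% were under the unadjusted limit. For 7 of the 8 the epididymal diet effect lay below the mesentery one, as it did for 43.7% of all genes, and Gata6, one of the 7 at -0.12, turned sign in 5 of 22 alternatives. As a description of the tissues, 6 of the 8 had no overlap on chow, 5 higher in epididymal fat and 1 in mesentery, beside 28.7% of all genes tested. On high fat diet it was 5 of 8, 3 higher in epididymal fat and 2 in mesentery, beside 26.4% of all genes. Gata4, with 7 reads against 0, was another, at least 1.86-fold higher in epididymal fat against the floor of 3 reads.

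**Figure D4:**
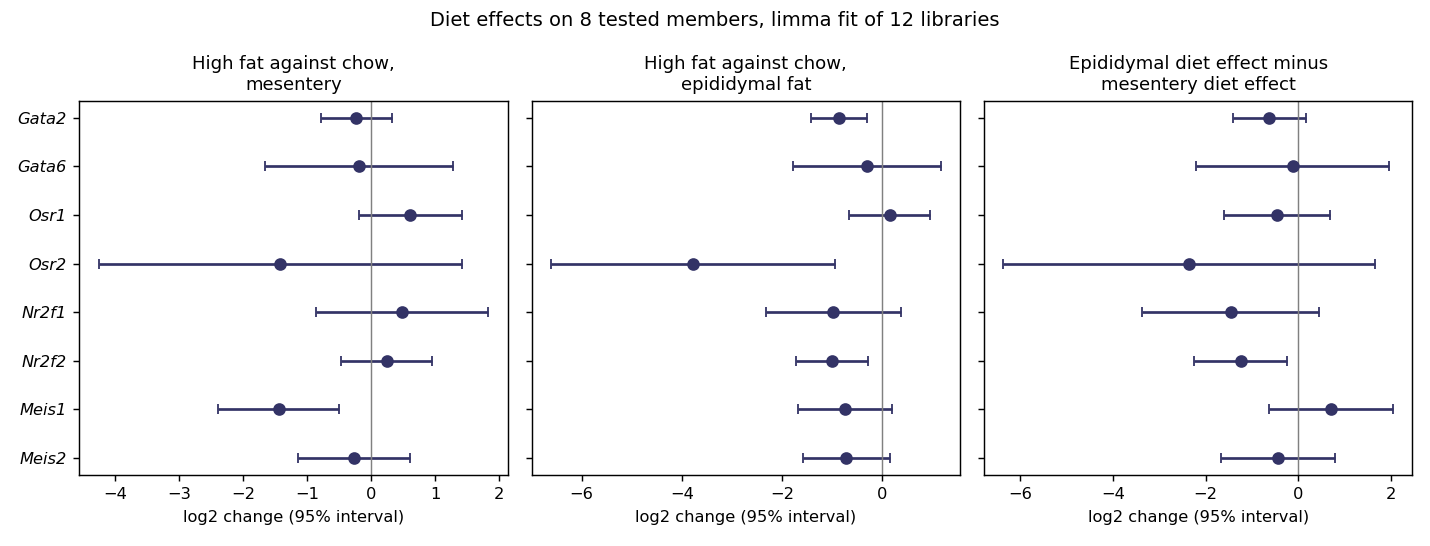
Log2 change with high fat diet in mesentery (left), in epididymal fat (centre) and the second minus the first (right) for the 8 factors tested, with 95% intervals from the limma fit of all 12 libraries. In epididymal fat the intervals of Gata2, Osr2 and Nr2f2 lie below 0 before adjustment over all genes, and in mesentery that of Meis1 does.

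Other developmental factors of the body wall and gut were measured beside the 9. Of 26 listed, 16 have a row in the table and 14 were tested, and none passed a diet test. On chow those higher in epididymal fat included Tcf21, Twist1 and Prrx1, and 3 were lower (Nkx2-3, Foxf1 and Tlx1). Nkx2-3, a homeobox factor of gut and spleen vessels, averaged 1091 ± 97.7 normalized counts (SD, n = 3) in chow mesentery and 695 ± 122 on high fat diet, with 0 reads in all 6 epididymal libraries. Its chow mesentery level was at least 1248-fold higher than the epididymal one against a floor of 3 reads over the group. Foxf1, a forkhead factor of the gut mesenchyme, had a log2 difference of -5.21 and Tlx1, a factor of the spleen, one of -5.26, both with Meis2 on the mesentery side. Tcf21, a factor of visceral mesenchyme and fat progenitors, had 6.92, on the side of Osr1 and Osr2. Within epididymal fat Tcf21 averaged 1199 ± 946 on chow and 306 ± 118 on high fat diet, without overlap (log2 change -1.74, adjusted p 0.821 in limma).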

How the data were processed

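Bulk RNA-seq of sorted YFP+ endothelial cells covered 12 libraries, 4 groups of 3, grouped by title. The deposited values are a signal per gene with no negative entries, counts that the authors normalized. Per the submitters' processing notes the authors used STAR 2.7.9a, featureCounts of Subread, DESeq2 1.34.0 and mm39; the use of strand is not given in the sources used here. Every value was a whole number of reads times 1 step per library (100% within a tolerance of 1e-06), so reads were recovered. Every gene has at least 51 reads in all, and a floor of 3 reads is 2.12 to 4.22 normalized counts, which covers counting error only. A fit of 1 mean per group with limma 3.58.1 (R 4.3.3, lmFit, eBayes with trend) was made on log2(normalized count + 1), which understates the change of low genes. It took the 22238 genes with a mean of at least 10, which leaves out Gata4, with Benjamini-Hochberg adjustment over all of them and a threshold of 0.05. Alternatives were edgeR 4.0.16 and DESeq2 1.42.0 on recovered reads, other pseudocounts, filters and scalings, blocks and left-out libraries. The procedure was tested on simulated data.

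The members and lists were chosen with earlier results of these data known. Named were the 9 members; list genes past a diet test; up to 4 genes per list with the largest tissue difference on chow, whose higher group averaged 100 or more without overlap; the 3 nearest profiles per member, out of genes averaging 50 or more; and main markers. Named after their values were seen were Gata3, Tek, Gpr182, Pdpn, Flt4, Nrp1, Notch4, Ldb1, Nr2c2, Icam2, Cldn5, Erg, Esam, Twist1 and Prrx1. So were Selp, Timd4, Prg4, Pdgfra, Pdgfrl, Muc16, Krt8, Krt18 and Prox1. A result for 1 listed gene is not reported here. Promoters are those of the RefSeq table for GRCm38.p6, cut to the 250 bases before the start.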

Additional observations from a re-analysis of the deposited data

How the results depend on the processing

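No setting that left out a library brought a diet change of the 8 factors past the threshold. Of the other alternatives, 2 called Gata2 lower in epididymal fat on high fat diet: rescaling to equal totals, and DESeq2. Members called there went from 0 to 1 in each. The rescaling shifted the median of all genes to 0.13 for diet in mesentery, -0.16 for the difference of diet effects and -0.12 for tissue on high fat diet, from -0.00, 0.11 and 0.06. For diet in epididymal fat, where the rescaling called Gata2, the median of all genes went from 0.10 to -0.04. Gata2 itself went from -0.87 to -1.01 there. The rescaling also moved the share of higher calls to 63.8% for diet in epididymal fat. For tissue on chow and on high fat diet that share was then 67.3% and 35.3%.

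Some signs turned, all of values that did not pass or were not tested, and the cause was not tested. With libraries 50 to 53 alone, Gata6 had 0.75 with diet in mesentery, Osr1 -0.091 with diet in epididymal fat, and Meis1 -0.18 in the difference of diet effects. Without 1 library in turn, Gata6 ran from -0.87 to 0.47 in mesentery, from -0.56 to 0.071 in epididymal fat and from -0.78 to 0.56 in the difference, and Osr1 from -0.14 to 0.54 in epididymal fat. Nr2f2 between tissues on high fat diet was -0.099 after rescaling and ran from -0.086 to 0.25 without 1 library.

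Counts over all genes moved more. Diet in mesentery called 3 genes, and 7 with a mean of at least 50, 1 in edgeR, 154 in DESeq2, 20 with libraries 50 to 53, 1 with the 2 groups alone and 1 to 37 without 1 library, most without chow mesentery replicate C. Diet in epididymal fat called 122, and 29 in edgeR, 546 in DESeq2, 31 with libraries 50 to 53 and 23 to 176 without 1 library, fewest without high fat epididymal replicate C. The difference of effects called 1, and 3 with a mean of at least 50, 133 in DESeq2, 11 with libraries 50 to 53 and 1 to 20 without 1 library. Tissue on chow called 2843, and 4349 with libraries 50 to 53 and 1516 to 3278 without 1 library, fewest without chow epididymal replicate B. Tissue on high fat diet called 1854, and 1021 in edgeR, 2931 in DESeq2 and 728 to 2508 without 1 library, fewest without high fat epididymal replicate C.

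Deviations from the group means did not settle whether libraries of the same number pair between tissues. On chow their correlation was 0.027, 0.53 and 0.58 for numbers 50, 51 and 87. On high fat diet it was -0.15, 0.15 and -0.11 for numbers 88, 52 and 53. With 3 libraries a group these values cannot decide it. A replicate block (letter for diet, number for tissue and the difference) called 0 members with diet, and 4, 104 and 2 genes for diet in mesentery, diet in epididymal fat and their difference. At 0 to 42 reads a group, depth limits what can be said of Gata4.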
